A study of Mus musculus with 17 samples.

Results

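DSS against no treatment was compared in the colon of MCJ-deficient mice. Dextran sulfate sodium (DSS) is a polymer that injures the colon epithelium when mice drink it, and it serves as a model of ulcerative colitis. The comparison held all 5 libraries of these mice that received no antibiotic, of 17 libraries in the series. The 3 libraries KO_NP_19, KO_NP_20 and KO_NP_21 came from MCJ-deficient mice given DSS for 6 days. The 2 libraries KO_NN_13 and KO_NN_14 came from MCJ-deficient mice for which the labels name no treatment. All were C57BL/6 mice aged 8 weeks, and the material was labelled as colon macrophages, obtained by washing and collagenase digestion. The labels' protocols name no sorting step, no allele or driver of the deficiency, and 1 mouse number per library. Wild-type mice under the same conditions, 3 with DSS and 3 without, were used only to set the DSS effect of each genotype side by side. Values below are CPM, counts scaled to a common library size, with TMM factors applied, unless another scale is named. Values of the DSS libraries are given in the order 19, 20, 21, and those of the untreated libraries in the order 13, 14.

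MCJ, the product of Dnajc15, is a protein of the inner membrane of mitochondria that holds back the first complex of the respiratory chain. Injury of the colon epithelium lets bacteria reach the tissue beneath it. Resident macrophages and epithelial cells then release cytokines and chemokines, neutrophils and Ly6C-high monocytes arrive from the blood, and the incoming cells release proteases and antimicrobial proteins. In bulk RNA, more cells of a type and more of a transcript per cell cannot be told apart.

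Depth was 34932286 to 37083344 counts in the DSS libraries, against 29937085 and 33511289 in the untreated libraries. Dnajc15 had 121, 60 and 65 counts in the DSS libraries, against 104 and 111 in the untreated ones, while the 6 wild-type libraries held 359 to 1534. Its level did not differ detectably between the MCJ-deficient groups (log2 fold change -0.43, SE 0.48, adjusted p = 0.672). Xist, which silences an X chromosome in female cells, had 4, 0 and 3822 counts in the DSS libraries, against 7176 and 7950 in the untreated ones. The summed counts of 4 Y-linked genes were 4258, 4153 and 1478 in the DSS libraries, against 9 and 0 in the untreated ones. The sex-linked transcripts therefore moved with the treatment, so that sex and DSS cannot be told apart within these 5 libraries, and KO_NP_21 stood apart in holding both kinds. The labels give KO_NP_21 1 mouse number, and whether it holds RNA of more than 1 animal was not tested. Genes of the sex chromosomes were left out of the fits, other than the alternative that entered all gene numbers. Gene numbers without a name took 1.44 to 1.68% of counts in the DSS libraries, against 5.57 and 5.95% in the untreated ones. The part of these differences in the results was not tested.

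Of 14139 genes tested, 853 rose after DSS (6.03% of genes) and 137 fell (0.969%) at an adjusted p under 0.05 in edgeR's quasi-likelihood test. The median log2 fold change of all genes was 0.0037. The counts depended on single libraries: they were 416 higher and 15 lower without KO_NN_13, 484 and 15 without KO_NN_14, 1036 and 327 without KO_NP_19, and 513 and 37 without KO_NP_20. Without KO_NP_21, the library with both kinds of sex-linked transcripts, 873 genes rose and 184 fell. Of the 158 called genes that the naming rule gave, 102 were called in each of these 5 fits. A term for sex-linked transcripts was entered in a fit of 10 libraries that also held wild-type mice and left out KO_NP_21. The term varied within a group only among untreated wild-type libraries, as WT_NN_3 against WT_NN_1 and WT_NN_2. It therefore rests on WT_NN_3, and sex and that library cannot be told apart in its values. In this fit 23 genes rose and 2 fell, 16 of the 158 named genes were still called, and 6 changed sign. Those 16 were Il1a, Il1b, Il1rn, Tnf, Cxcl2, Ccl9, Clec4d, Clec4e, Acod1, Ptgs2, S100a8, S100a9, Slpi, Lcn2, Cd44 and Spp1. The increase was unevenly shared among the DSS libraries, since 610 of the 853 genes that rose were highest in KO_NP_20, 127 in KO_NP_19 and 116 in KO_NP_21.

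**Figure D1:**
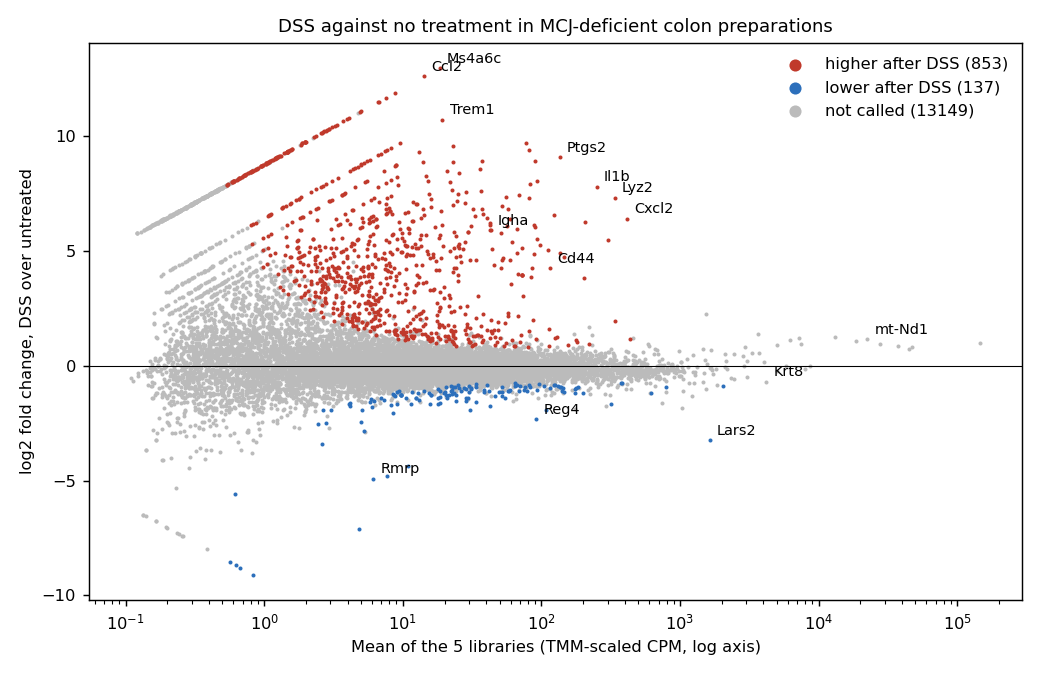
Each point is 1 of 14139 genes, with its mean level over the 5 libraries in TMM-scaled CPM on a log axis and its log2 fold change, DSS over untreated. Red points are the 853 genes called higher after DSS, blue points the 137 called lower. The straight bands at the upper and lower left are genes at or near 0 counts in 1 group, whose fitted fold depends on the prior count.

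Of 11 ligands, receptors and antagonists of the interleukin 1 family tested, 7 rose and none fell, with a median log2 fold change of 1.97. Il1b, the secreted form that neutrophils and macrophages release after inflammasome cleavage, stood at 295, 541 and 417 CPM in the DSS libraries, against 1.43 and 2.27 CPM in the untreated libraries. The lowest DSS library lay far above the highest untreated one, and the log2 fold change was 7.81 (SE 0.41, adjusted p = 7.06e-06). Il1a, which dying cells release as an alarmin, stood at 79.5, 213 and 119 CPM after DSS, against 0.372 and 0.747 CPM without it (7.92, SE 0.57, adjusted p = 2.38e-05). Il1f9, which encodes interleukin 36 gamma, had 918 counts over the DSS libraries and 2 over the untreated ones, a ratio of 304 (95% counting interval 84.0 to 2520). The 2 brakes of the pathway rose as well. Il1rn, the receptor antagonist, was already present without DSS and stood at 409, 578 and 466 CPM after it, against 124 and 123 CPM (1.97, SE 0.23, adjusted p = 0.000379). Il1r2, a decoy receptor, rose by 5.66 (SE 0.54, adjusted p = 0.000116).

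Among the interleukin 6, 10 and 12 families and the colony-stimulating factors, 7 of 15 members tested rose and none fell. Their median log2 fold change was 5.12, or 3.89 when members with 0 untreated counts were set to a floor of 3 counts. Osm, which encodes oncostatin M, a cytokine of myeloid cells that acts on stromal cells, stood at 23.2, 46.5 and 40.2 CPM in the DSS libraries, against 0.155 and 0.120 CPM in the untreated ones (8.02, SE 0.50, adjusted p = 1.13e-05). Il10, the main anti-inflammatory cytokine of gut macrophages, stood at 40.0, 110 and 35.3 CPM after DSS, against 0 and 0.239 CPM (8.94, SE 0.88, adjusted p = 0.000126). Both a pro-inflammatory and an anti-inflammatory cytokine thus increased, with KO_NP_20 highest for each. Il6, which drives the acute phase, rose by 4.85 (SE 0.37, adjusted p = 2.96e-05). Csf3, the growth factor of neutrophils, rose by 5.12 (SE 0.51, adjusted p = 0.000136).

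In the TNF and NF-kB pathway 8 of 18 genes rose and none fell (median 0.77). The number was 4 without KO_NN_13. Tnf stood at 81.0, 135 and 68.8 CPM in the DSS libraries, against 9.19 and 6.88 CPM in the untreated ones (3.56, SE 0.35, adjusted p = 0.00012). The receptor gene Tnfrsf1b rose by 2.53 (SE 0.29, adjusted p = 0.000324), and the adhesion molecule Icam1, to which leukocytes bind on vessels, rose by 3.65 (SE 0.50, adjusted p = 0.00122). Tnfaip2, a gene induced by TNF, rose by 5.33 (SE 0.70, adjusted p = 0.000817).

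Of 7 genes for chemokines that call neutrophils and their receptors, 4 rose (3 chemokines and 1 receptor), with a median of 5.28, or 2.63 with the members at 0 counts set to the floor. The number was 2 without KO_NN_13 and 2 without KO_NN_14. Cxcl2 stood at 548, 956 and 556 CPM in the DSS libraries, against 10.3 and 5.83 CPM in the untreated ones (6.41, SE 0.42, adjusted p = 1.45e-05). Cxcl3 stood at 152, 190 and 136 CPM after DSS, against 4.78 and 3.44 CPM (5.28, SE 0.30, adjusted p = 1.07e-05). For both genes all DSS libraries lay more than an order of magnitude above the untreated ones. Cxcl1, the third of this group, was better expressed without DSS and rose by less, to 120, 175 and 75.5 CPM after DSS, against 34.4 and 26.9 CPM (2.01, SE 0.34, adjusted p = 0.0044). Their shared receptor Cxcr2, carried by neutrophils, had 167 counts over the DSS libraries and none over the untreated ones, at least 36.9-fold higher (adjusted p = 0.0145). The calls of Cxcl1 and Cxcr2 did not hold without KO_NN_13 or without KO_NN_14.

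NF-kB and AP-1 are transcription factors known to act at the promoters of cytokine genes. Promoter windows of 250 bases before to 50 bases after each start were searched on both strands for a form of the kB motif (GGG, any 2 bases, TT, any base, CC) and for TGANTCA, the AP-1 motif, which is its own reverse complement. The kB letters were in 57 of 629 promoters of genes that rose (9.06%), in 10 of 100 of genes that fell (10.0%) and in 721 of 10871 of all genes tested (6.63%). The AP-1 letters were in 88 of 629 (14%), 8 of 100 (8.0%) and 761 of 10871 (7.00%). A match is a description of the letters and not a binding site. The windows of Cxcl2 and Cxcl3 and that of Il1a are shown because these genes rose together and hold the motifs, which are in capitals. They were chosen after their values were seen, and they are from RefSeq on GRCm38.p6, 5′ to 3′ along the gene's strand.
Cxcl2, chr5:90903649-90903948, plus strand, kB letters beginning 97 and 78 bases before the start: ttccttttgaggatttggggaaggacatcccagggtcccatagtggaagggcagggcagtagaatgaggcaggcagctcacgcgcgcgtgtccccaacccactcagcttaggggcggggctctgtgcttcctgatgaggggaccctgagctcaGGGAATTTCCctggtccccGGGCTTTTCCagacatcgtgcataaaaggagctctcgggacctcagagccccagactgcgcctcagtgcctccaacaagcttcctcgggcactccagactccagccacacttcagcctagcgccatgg
Cxcl3, chr5:90785851-90786150, plus strand, kB letters beginning 73 bases before the start: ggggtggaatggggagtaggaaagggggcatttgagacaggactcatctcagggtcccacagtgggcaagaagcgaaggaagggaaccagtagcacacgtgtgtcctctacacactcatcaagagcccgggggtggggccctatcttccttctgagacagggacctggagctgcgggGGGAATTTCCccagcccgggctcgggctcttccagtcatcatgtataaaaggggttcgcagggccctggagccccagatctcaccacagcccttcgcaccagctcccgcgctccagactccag
Il1a, chr2:129309923-129310222, minus strand, AP-1 letters beginning 12 bases before the start: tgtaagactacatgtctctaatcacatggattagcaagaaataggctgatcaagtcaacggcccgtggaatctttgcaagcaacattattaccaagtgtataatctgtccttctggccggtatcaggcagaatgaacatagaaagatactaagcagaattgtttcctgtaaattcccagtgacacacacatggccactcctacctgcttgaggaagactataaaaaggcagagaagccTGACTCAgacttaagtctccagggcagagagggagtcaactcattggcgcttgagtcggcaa

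CC chemokines, which attract monocytes, eosinophils and lymphocytes, rose in 8 of 15 cases (median 4.68), and none fell. Ccl2, the ligand that draws monocytes through Ccr2, had 2408 counts over the DSS libraries and none over the untreated ones, at least 532-fold higher (adjusted p = 7.31e-05). Ccl3 stood at 101, 182 and 123 CPM in the DSS libraries, against 0.931 and 0.747 CPM in the untreated ones (7.32, SE 0.39, adjusted p = 7.06e-06). Ccl4, a close relative, rose by 7.45 (SE 0.53, adjusted p = 2.38e-05). These genes were thus nearly silent without DSS. Ccl9, a chemokine of myeloid cells, stood at 57.6, 115 and 82.8 CPM after DSS, against 2.73 and 3.89 CPM (4.68, SE 0.37, adjusted p = 3.62e-05). Ccl11, eotaxin, the ligand of the eosinophil receptor Ccr3, rose by 6.51 (SE 0.56, adjusted p = 5.75e-05).

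Receptors that sense microbes rose in 8 of 16 cases (median 2.03), and each of the 8 was highest in KO_NP_20. Clec4e, the lectin Mincle that binds microbial glycolipids, stood at 119, 207 and 135 CPM in the DSS libraries, against 0.528 and 0.628 CPM in the untreated ones (8.04, SE 0.39, adjusted p = 7.06e-06). Its partner Clec4d rose by 8.59 (SE 0.51, adjusted p = 1.11e-05). Cd14, which hands lipopolysaccharide to Toll-like receptors, was measurable in every library, at 264, 434 and 267 CPM after DSS, against 24.1 and 20.5 CPM (3.85, SE 0.30, adjusted p = 3.62e-05). Fpr1, the receptor of bacterial formyl peptides, had 1499 against 3 counts, a ratio of 331 (95% counting interval 113 to 1610). Of 10 inflammasome genes 1 rose, the sensor Nlrp3, at 17.4, 21.96 and 14.8 CPM after DSS, against 0.155 and 0.179 CPM (6.72, SE 0.44, adjusted p = 1.27e-05). The inflammasome list had a median of 0.05, and no other member was called, beside 6.03% of all genes tested that rose.

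Enzymes of prostaglandin and leukotriene synthesis rose in 7 of 15 cases (median 3.78, or 3.52 with members at 0 counts set to the floor), with 3 without KO_NN_13 and 4 without KO_NN_14 or without KO_NP_20. Ptgs2, the inducible cyclooxygenase, stood at 161, 300 and 217 CPM in the DSS libraries, against 0.528 and 0.299 CPM in the untreated ones. Its log2 fold change of 9.08 (SE 0.45, adjusted p = 7.06e-06) was among the most certain of all. Ptges, the synthase that acts after it to form prostaglandin E, rose by 4.32 (SE 0.48, adjusted p = 0.000276). Alox5ap, which presents arachidonic acid to lipoxygenase, rose by 7.65 (SE 0.57, adjusted p = 2.8e-05).

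**Figure D2:**
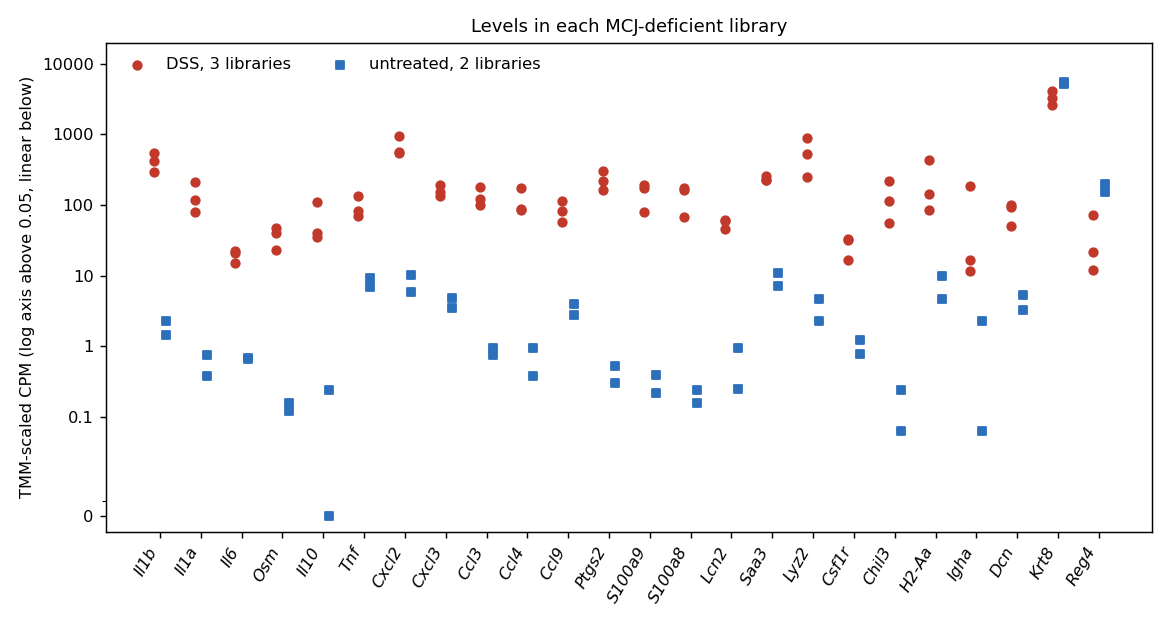
Levels of 24 genes in TMM-scaled CPM (log axis above 0.05, linear below), with DSS libraries as red circles and untreated libraries as blue squares. For cytokine, chemokine and phagocyte genes the red points lie above the blue ones without overlap, as for Il1b (295 to 541 against 1.43 and 2.27 CPM), while Krt8 and Reg4 lie lower after DSS. Il10 was at 0 in 1 untreated library.

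The label of macrophages was checked against marker sums, given as CPM of autosomal counts. Macrophage markers summed to 640.2, 2235 and 1204 CPM in the DSS libraries, against 54.22 and 50.92 CPM in the untreated ones. Colonocyte markers, the keratins, carbonic anhydrases and transporters of the surface epithelium, summed to 47530, 35940 and 41630 CPM after DSS, against 43930 and 55560 CPM without it. In every library the epithelial sum was thus far above the macrophage sum, so the preparations went against a label of pure macrophages. Of 19 marker sums 14 were higher after DSS with no overlap of the libraries, and 5 overlapped (monocytes, mast cells, B cells, colonocytes and goblet cells). With 3 against 2 libraries the exact two-sided permutation test cannot go below p = 0.2, which was the value for each of those 14 (adjusted p = 0.267 over 20 measures). Some of the 14 rested largely on 1 gene. The crypt stem sum was 352.2, 461.7 and 317.4 CPM after DSS, against 156.1 and 113.3 CPM. Cd44 made up 257.9, 409.7 and 248.9 CPM of it after DSS, against 15.77 and 14.37 CPM. Of its 9 tested members 7 had negative fold changes. The plasma cell sum was mostly Xbp1, which was not called, except in KO_NP_20. The adipocyte sum after DSS was mostly Fabp4.

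Of 14 macrophage markers 10 rose and none fell (median 5.13), with 6 without KO_NN_13 or without KO_NN_14, and all 10 were highest in KO_NP_20. With the sex term none was called, at a median of 5.56. Lyz2, the lysozyme of myeloid cells, stood at 250, 900 and 528 CPM in the DSS libraries, against 2.30 and 4.63 CPM in the untreated ones (7.33, SE 0.64, adjusted p = 6.58e-05). Csf1r, through which the growth factor CSF1 acts, stood at 16.8, 32.9 and 31.4 CPM after DSS, against 0.776 and 1.23 CPM (4.75, SE 0.43, adjusted p = 7.81e-05). The scavenger receptor Msr1 rose by 4.87 (SE 0.62, adjusted p = 0.000684) and the lysosomal glycoprotein Cd68 by 5.11 (SE 0.75, adjusted p = 0.00175). C1qa, a complement chain made by resident macrophages, was uneven after DSS at 13.2, 104 and 20.2 CPM, against 1.15 and 1.02 CPM (5.40, SE 0.91, adjusted p = 0.00453), and its call did not hold without either untreated library. Cd163, a receptor of tissue macrophages, had no count in the untreated libraries. It thus passed the filter through the DSS libraries alone, and its direction was fixed.

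Monocyte and neutrophil genes rose beside those of macrophages. Of 8 monocyte markers 7 rose (median 6.16), also in each fit without 1 library. Chil3, the chitinase-like protein Ym1, stood at 55.2, 218 and 114 CPM in the DSS libraries, against 0.0621 and 0.239 CPM in the untreated ones (9.70, SE 0.80, adjusted p = 4.81e-05). Ccr2, the receptor that lets monocytes leave the bone marrow, rose by 7.89 (SE 0.79, adjusted p = 0.000142), Vcan by 5.59 (SE 0.39, adjusted p = 2.04e-05) and Ly6c2 by 3.42 (SE 0.41, adjusted p = 0.00047). The monocyte sum overlapped between the groups and was mostly Plac8, at 655, 1132 and 825 CPM after DSS, against 642 and 1078 CPM (0.02, SE 0.29).

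Neutrophil markers rose in 9 of 11 cases. Their median was 8.75, or 6.50 with members at 0 counts set to the floor, and 6 of the 9 were highest in KO_NP_19. Of the 12 listed, Mmp8, Cxcr2, Ltf and Camp had 0 untreated counts. Those of them that were tested passed the filter through the DSS libraries alone, so their direction was fixed. S100a8, a subunit of calprotectin, which binds zinc and manganese, stood at 177, 162 and 67.6 CPM in the DSS libraries, against 0.155 and 0.239 CPM in the untreated ones (9.39, SE 0.60, adjusted p = 1.27e-05). S100a9, the other subunit, rose by 8.92 (SE 0.55, adjusted p = 1.13e-05). The pair followed the same order among the DSS libraries, with KO_NP_21 lowest. Csf3r, the receptor of granulocyte colony-stimulating factor, had 1109 counts against 1, a ratio of 735 (95% counting interval 132 to 29100). The collagenase Mmp8, stored in neutrophil granules, had 1499 counts against none, at least 331-fold higher (adjusted p = 3.14e-05). Retnlg, which neutrophils express in mice, rose by 4.90 (SE 0.47, adjusted p = 0.000117).

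Rarer leukocytes left smaller traces. Dendritic cell markers summed to 25.57, 47.71 and 32.76 CPM of autosomal counts after DSS, against 0.9614 and 1.307 CPM, with 2 of 5 tested markers called, Itgax (4.37, SE 0.46, adjusted p = 0.000197) and the lymph node homing receptor Ccr7 (at least 109-fold higher, adjusted p = 0.000587). Of the 8 listed, 6 had 0 untreated counts, so the direction of those tested was fixed by the filter. The eosinophil receptor Ccr3 rose by 4.81 (SE 0.72, adjusted p = 0.00197), and 2 of 4 eosinophil markers were called, a number that was 0 without either untreated library and 1 without KO_NP_20. Of 4 mast cell markers 1 rose, Mcpt2 (5.22, adjusted p = 0.0175), and its call did not hold without KO_NN_13 or without KO_NP_19. Of 7 T and NK cell markers Cd4 was called, with 223 against 3 counts, a ratio of 49.3 (95% counting interval 16.6 to 241), and its call did not hold without KO_NN_13 or without KO_NP_20. No B cell marker passed the filter on low counts. The plasma cell genes Jchain, Igha and Igkc were called, but 1 library carried them. Igha, the heavy chain of immunoglobulin A, stood at 16.8, 185 and 11.7 CPM after DSS, against 0.0621 and 2.27 CPM (5.91, SE 1.46, adjusted p = 0.0363). The calls of Igha and Igkc did not hold without either untreated library or without KO_NP_20, and that of Jchain did not hold without either untreated library. With the sex term Jchain (-1.08) and Igha (-0.19) changed direction, and the median of the 5 plasma cell markers was 0.18, against 5.85 without that term. The term rests on WT_NN_3, which held 174.0 CPM of autosomal counts of Igha, against 3.083 and 0.06877 in WT_NN_1 and WT_NN_2.

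**Figure D3:**
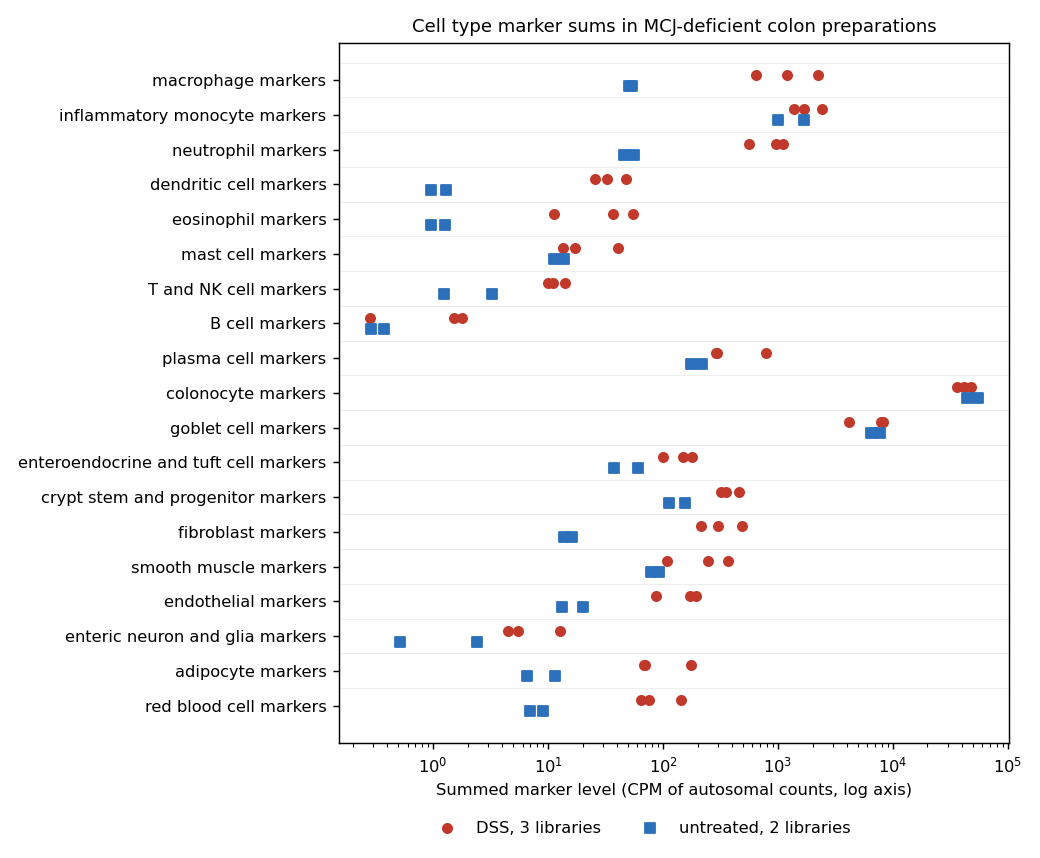
Sums of 19 marker lists in each library, in CPM of autosomal counts on a log axis, with 3 DSS libraries as red circles above 2 untreated libraries as blue squares. Macrophage (640.2 to 2235 against 50.92 and 54.22 CPM), neutrophil, fibroblast and endothelial sums were higher after DSS without overlap, while colonocyte and goblet cell sums overlapped.

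Genes by which phagocytes bind and take up coated particles rose in 12 of 13 cases (median 6.40, or 6.21 with members at 0 counts set to the floor). Tyrobp and Fcer1g are adaptor chains that carry the signal of many myeloid receptors. Fcer1g stood at 54.7, 150 and 80.5 CPM in the DSS libraries, against 0.466 and 1.20 CPM in the untreated ones (6.83, SE 0.59, adjusted p = 5.75e-05), and Tyrobp rose by 6.40 (SE 0.55, adjusted p = 5.74e-05). The inhibitory receptor Fcgr2b rose by 6.21 (SE 0.57, adjusted p = 8.69e-05), and Itgb2, the shared chain of leukocyte integrins, by 5.13 (SE 0.46, adjusted p = 7.34e-05). Adaptors, an inhibitory receptor and an integrin chain thus rose together.

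Complement genes rose in 10 of 14 cases (median 5.26), with 5 without KO_NN_13 or without KO_NN_14. The central component C3 stood at 49.5, 31.0 and 15.7 CPM after DSS, against 1.24 and 0.478 CPM (5.22, SE 0.60, adjusted p = 0.000346). C5ar1, the receptor of the anaphylatoxin made from C5, rose by 5.98 (SE 0.47, adjusted p = 3.4e-05). MHC class II genes, which present peptides to CD4 T cells, rose in 6 of 8 cases (median 3.65), with 2 without KO_NN_13 and 4 without KO_NN_14 or without KO_NP_20. H2-Aa stood at 86.1, 433 and 144 CPM in the DSS libraries, against 4.66 and 9.75 CPM in the untreated ones (4.94, SE 0.71, adjusted p = 0.00155). H2-Ab1 (5.15, SE 0.59, adjusted p = 0.000362) and the invariant chain Cd74 (4.28, SE 0.47, adjusted p = 0.000246) followed it, each highest in KO_NP_20, and the call of H2-Aa did not hold without KO_NN_13.

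Genes of both textbook macrophage programs rose. Of 14 genes of classical activation 10 rose (median 4.23), and of 12 genes of alternative activation 9 rose (median 3.99). Classical genes were 6 without KO_NN_13, and alternative genes were 5 without either untreated library and 6 without KO_NP_20. Acod1, which makes itaconate in activated macrophages, stood at 52.1, 86.4 and 49.0 CPM after DSS, against 0.466 and 0.807 CPM (6.61, SE 0.42, adjusted p = 1.27e-05). The costimulatory gene Cd86 rose by 5.81 (SE 0.66, adjusted p = 0.000344). Arg1, the arginase that defines alternative activation in mice, stood at 15.3, 19.99 and 12.3 CPM after DSS, against 0.621 and 0.389 CPM (4.97, SE 0.43, adjusted p = 5.83e-05). Tgm2, a transglutaminase, rose by 3.06 (SE 0.35, adjusted p = 0.000345). Of interferon-stimulated genes 2 of 20 were called, beside 6.03% of all genes tested that rose. In this list 9 of 20 had negative fold changes (median 0.11), so the calls are no result about the list as a whole. The 2 called were the chemokines Cxcl9 (6.39, SE 1.27, adjusted p = 0.0119) and Cxcl10 (2.10, SE 0.56, adjusted p = 0.0498). Neither call held without KO_NN_13, without KO_NN_14 or without KO_NP_20.

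Antimicrobial, REG and acute phase genes moved in both directions, with 11 of 24 higher and 1 lower (median 1.96). The number higher was 7 without KO_NN_13. Lcn2, lipocalin-2, which withholds iron from bacteria and serves as a marker of colitis, stood at 58.8, 45.3 and 60.5 CPM in the DSS libraries, against 0.248 and 0.927 CPM in the untreated ones (6.53, SE 0.48, adjusted p = 2.44e-05). Saa3, an acute phase serum amyloid of mice, stood at 261, 227 and 226 CPM after DSS, against 10.8 and 7.03 CPM (4.74, SE 0.28, adjusted p = 1.11e-05). For these genes the DSS libraries were nearly alike. The elastase inhibitor Slpi rose by 5.07 (SE 0.37, adjusted p = 2.41e-05). The member that fell was Reg4, a lectin of secretory epithelial cells, at 11.9, 21.6 and 72.2 CPM after DSS, against 201 and 151 CPM (-2.32, SE 0.57, adjusted p = 0.0357), and its call did not hold without either untreated library or without KO_NP_20.

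Proteases and inhibitors of the extracellular matrix rose in 14 of 17 cases (median 5.73, or 4.73 with members at 0 counts set to the floor). Mmp13, a collagenase, stood at 31.8, 52.1 and 59.6 CPM in the DSS libraries, against 0.435 and 0.0598 CPM in the untreated ones (7.59, SE 0.60, adjusted p = 3.62e-05). Mmp12, the elastase of macrophages, rose by 7.49 (SE 0.62, adjusted p = 4.98e-05). Mmp3 and Mmp10, the stromelysins, had no counts without DSS and were at least 166-fold and at least 145-fold higher after it, with Mmp3 uneven among the DSS libraries at 13.6, 5.03 and 1.67 CPM. The call of Mmp3 did not hold without KO_NN_13 or without KO_NN_14. Of 7 inhibitors and granule genes of neutrophil proteases, 3 rose. Spp1, osteopontin, had 3687 against 3 counts, a ratio of 815 (95% counting interval 279 to 3950).

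Fibroblast genes rose in 9 of 9 cases (median 4.64), with 6 without KO_NN_14, and 7 of the 9 were highest in KO_NP_19, unlike the macrophage markers. The small proteoglycan Dcn stood at 100, 94.0 and 50.8 CPM in the DSS libraries, against 5.37 and 3.23 CPM in the untreated ones (4.25, SE 0.39, adjusted p = 8.51e-05). Fn1, fibronectin, rose by 4.72 (SE 0.51, adjusted p = 0.000241) and the collagen gene Col3a1 by 4.78 (SE 0.64, adjusted p = 0.000997). Endothelial genes rose in 7 of 10 cases (median 3.15), with 2 without KO_NN_13, 4 without KO_NP_20 and 7 without KO_NN_14. Lyve1, a hyaluronan receptor of lymphatic vessels, stood at 15.1, 34.0 and 30.8 CPM after DSS, against 3.66 and 4.21 CPM (2.75, SE 0.38, adjusted p = 0.00122), and Plvap, of fenestrated capillaries, rose by 3.87 (SE 0.54, adjusted p = 0.00131). Of 7 smooth muscle genes 3 rose, a number that was 0 without either untreated library, 1 without KO_NP_20 and 7 without KO_NP_19. With the sex term none of the fibroblast, endothelial or smooth muscle genes was called. Their medians were 1.62, 1.24 and -0.63, so the smooth muscle list changed direction in that fit. None of the macrophage, monocyte, phagocyte uptake, complement, MHC class II and alternative activation genes was called in it either. Those lists had medians of 5.56, 6.06, 5.88, 3.46, 2.64 and 6.49, and 2 neutrophil markers were called. The term rests on WT_NN_3, whose fibroblast sum was 338.7 CPM of autosomal counts, against 22.22 and 61.55 in WT_NN_1 and WT_NN_2. Its smooth muscle sum was 226.3 CPM, against 56.39 and 70.69. Red blood cell genes summed to 143.0, 74.96 and 64.96 CPM of autosomal counts after DSS, against 8.989 and 7.001 CPM, and all 3 tested globins rose, for example Hba-a1 (3.60, SE 0.40, adjusted p = 0.000268), whose reads near-identical copies share. Of 3 adipocyte markers 1 rose, the fatty acid binding protein gene Fabp4 (4.63, adjusted p = 0.00143), and of 3 enteric neuron and glia markers none did. Stromal, vascular and blood markers thus moved with the leukocyte markers, and their part in the changes of single genes was not tested.

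Few epithelial markers were called. Of 18 colonocyte markers 1 fell and none rose (median -0.47), and 16 of the 18 had negative fold changes. The 1 called was Phgr1, at 321, 288 and 278 CPM in the DSS libraries, against 458 and 538 CPM in the untreated ones (-0.75, SE 0.20, adjusted p = 0.0457). That call did not hold without KO_NN_13, KO_NN_14, KO_NP_20 or KO_NP_21. Krt8, the main keratin of simple epithelium, stood at 3300, 2636 and 4154 CPM after DSS, against 5608 and 5255 CPM, with no overlap but no call (-0.69, SE 0.23, adjusted p = 0.117). Cdx1, a transcription factor of the intestinal epithelium, did not pass either (-0.74, SE 0.22, adjusted p = 0.0768).

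Single genes of epithelial function did pass, beside 6.03% of all genes tested that rose and 0.969% that fell. So few calls in short lists are no result about epithelial function as a whole. Muc3, a mucin anchored in the apical membrane, was the 1 of 13 mucin and goblet cell secretory genes called, at 322, 384 and 528 CPM in the DSS libraries, against 832 and 1050 CPM in the untreated ones (-1.19, SE 0.24, adjusted p = 0.0145). Its call did not hold without KO_NN_14 or without KO_NP_20. Of 22 genes of ion and water transport 2 fell, among them Scnn1a, a subunit of the epithelial sodium channel (-1.39, SE 0.36, adjusted p = 0.0442). In the same list Clca4b, a regulator of chloride channels, rose by 2.55 (SE 0.49, adjusted p = 0.00994). Retnlb, the resistin-like protein of goblet cells and the 1 of 12 goblet cell markers called, rose by 1.54 (SE 0.37, adjusted p = 0.0309), and so did the hormone genes Gcg (1.79, SE 0.28, adjusted p = 0.00295) and Pyy (1.16, SE 0.29, adjusted p = 0.0393). None of the calls of Scnn1a, Clca4b, Retnlb, Gcg and Pyy held without KO_NN_13 or without KO_NN_14. Those of Scnn1a, Retnlb and Pyy were also lost without KO_NP_20, and that of Pyy without KO_NP_21. Of 19 junction genes only Cldn1 was called, with 112 counts after DSS and none without it, at least 24.7-fold higher (adjusted p = 0.037), and its call did not hold without either untreated library or without KO_NP_20.

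The calls in the next 2 lists stand beside 6.03% of all genes tested that rose and 0.969% that fell. Of 9 crypt stem and progenitor genes tested 1 rose and none fell, while the median was -0.82 and turned to 2.31 with the sex term. The 1 was Cd44, a hyaluronan receptor that leukocytes also carry, at 146, 258 and 154 CPM in the DSS libraries, against 10.2 and 9.21 CPM in the untreated ones (4.26, SE 0.32, adjusted p = 2.96e-05). Sox9, a regulator of crypt progenitors, stood at 17.3, 10.5 and 16.2 CPM after DSS, against 29.7 and 20.9 CPM, without a call (adjusted p = 0.142). Genes of repair and of epidermal growth factor ligands rose in 4 of 23 cases, with a median of 0.28, and 10 of the 23 had negative fold changes. Among the 4 were Ereg, epiregulin, at 35.1, 24.3 and 22.3 CPM after DSS, against 3.97 and 6.25 CPM (2.41, SE 0.33, adjusted p = 0.00107), and the urokinase receptor Plaur (1.35, SE 0.27, adjusted p = 0.0121). The call of Plaur did not hold without either untreated library, and the number of repair genes was 2 without KO_NN_14 and 7 without KO_NP_19. All 20 cell cycle genes had positive fold changes (median 1.05) and 7 were called. Top2a, a topoisomerase of dividing cells, stood at 38.6, 33.2 and 19.3 CPM after DSS, against 9.62 and 11.1 CPM (1.55, SE 0.32, adjusted p = 0.0144). The number of cell cycle calls was 1 without KO_NN_13, none without KO_NN_14 or without KO_NP_20, and 10 without KO_NP_21, and DESeq2 called 11. The call of Top2a was among those lost without KO_NN_13, KO_NN_14 or KO_NP_20.

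Fold changes of respiratory chain transcripts leaned in opposite directions by genome, but with all 5 libraries edgeR called no gene on either side. Transcripts of the mitochondrial chromosome took 33.83, 43.86 and 48.99% of counts in the DSS libraries, against 23.12 and 28.35% in the untreated ones, a difference of 16.49 percentage points (p = 0.2 by exact permutation of the libraries, two-sided, adjusted p = 0.267). In wild-type libraries this share was 40.01, 40.91 and 32.25% with DSS, against 38.86, 42.17 and 50.37% without it. In MCJ-deficient mice all 13 protein-coding mitochondrial genes had positive fold changes (median 1.01, or 0.51 with the sex term), and none was called. For example, mt-Nd1, a complex I subunit, stood at 17450, 33090 and 35970 CPM after DSS, against 11550 and 14420 CPM (1.15, SE 0.32, adjusted p = 0.0574). All 13 were called without KO_NP_19, the DSS library with the lowest mitochondrial share, and 2 without KO_NN_14, while DESeq2 called 10.

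The nuclear subunits leaned the other way. Of 35 complex I subunits 34 had negative fold changes (median -0.41), and of 37 subunits of complexes II to V 36 did (median -0.41). These numbers were the same with RLE size factors and with nuclear genes alone. With the sex term, which rests on WT_NN_3, the medians were 0.09 and 0.0038, so the negative direction did not hold in that fit. None was called by edgeR, and DESeq2 called 2 lower in each list. Ndufb2, a small complex I subunit, stood at 38.5, 38.1 and 37.4 CPM in the DSS libraries, against 64.7 and 58.8 CPM in the untreated ones (-0.70, SE 0.19, adjusted p = 0.0577). Cox6c, of complex IV, had -0.63 (SE 0.20, adjusted p = 0.101). Genes of fatty acid oxidation were called in 0 of 20 cases (median -0.36), with Hadha, a subunit of the trifunctional protein, at -0.68 (SE 0.22, adjusted p = 0.107). In the list of MCJ and the import motor of the inner membrane, 0 of 10 genes were called (median 0.12).

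Other metabolic and stress genes were called in small numbers, beside 6.03% of all genes tested that rose and 0.969% that fell. Of 24 genes of glycolysis and hypoxia 3 rose (median 0.04), including Slc16a3, an exporter of lactate, at 13.9, 17.4 and 13.96 CPM in the DSS libraries, against 1.15 and 0.658 CPM in the untreated ones (4.06, SE 0.39, adjusted p = 0.000116). Of 22 genes of oxidative stress and the NADPH oxidase 9 rose (median 0.33), led by the phagocyte oxidase subunits Ncf1 (5.16, SE 0.40, adjusted p = 3.28e-05) and Ncf4 (5.53, SE 0.51, adjusted p = 8.77e-05). Slc7a11, the cystine importer that feeds glutathione synthesis, rose by 1.86 (SE 0.28, adjusted p = 0.00197). The oxidase calls were 5 without KO_NN_13 and 4 without KO_NN_14. Of 19 sterol genes only the cholesterol exporter Abca1 rose (4.11, SE 0.50, adjusted p = 0.000528). Of 21 heat shock and endoplasmic reticulum stress genes only Hspb1 rose (1.49, SE 0.38, adjusted p = 0.0401), a call that held without KO_NP_19 and in none of the other 4 fits. Lysosomal genes rose in 5 of 23 cases, for example Ctsc, a protease that activates granule proteases (1.60, SE 0.27, adjusted p = 0.00459), with 1 without KO_NN_14, where the call of Ctsc was lost, and 2 without KO_NN_13 or without KO_NP_20. Of 15 immediate early genes Ier3 rose (1.98, SE 0.28, adjusted p = 0.00139) and Nr4a1 fell (-1.18, SE 0.30, adjusted p = 0.0411). The call of Nr4a1 did not hold without KO_NN_13, KO_NP_19 or KO_NP_20, while 5 immediate early genes fell without KO_NP_19. Of 22 genes of xenobiotic and steroid metabolism 1 fell, Hsd11b2, which inactivates glucocorticoids in epithelial cells (-0.93, SE 0.20, adjusted p = 0.0212), with the call lost without KO_NN_13, KO_NN_14 or KO_NP_20, while 4 genes of the list fell without KO_NP_21.

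**Figure D4:**
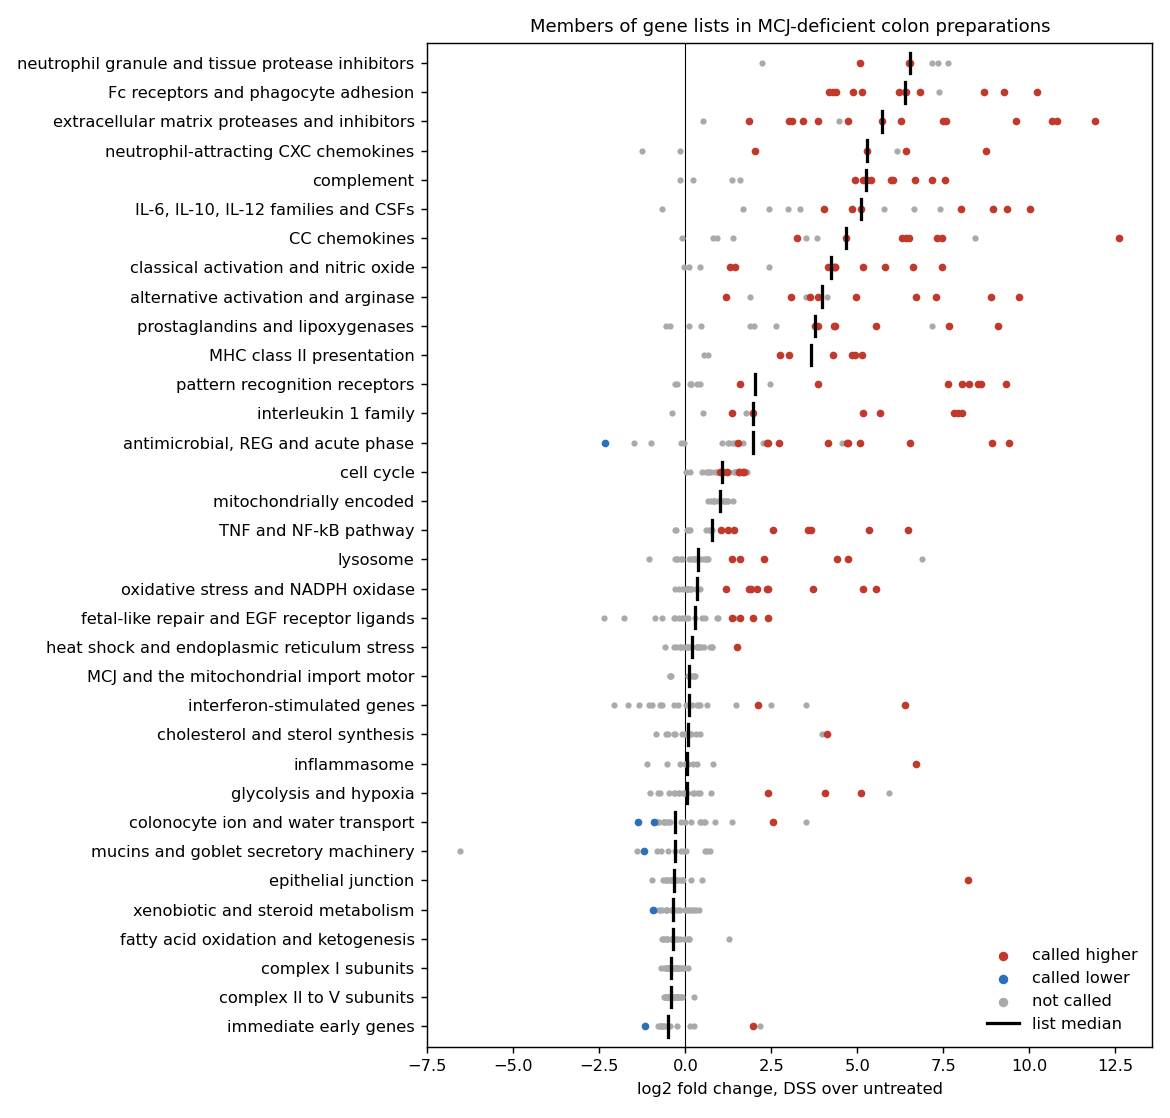
Each point is a tested member of 1 of 34 gene lists, placed by its log2 fold change, DSS over untreated, with lists ordered by their median (black bar). Red points were called higher, blue points lower, grey points were not called. Lists of phagocytes, matrix proteases, chemokines and complement lie far to the right, while complex I subunits (median -0.41) lie just left of 0. Members with 0 counts in a group are drawn at their fitted value, which depends on the prior count.

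The 15 largest increases under the naming rule were genes with 0 or 1 counts over both untreated libraries. Ms4a6c, a membrane protein of myeloid cells, had 2853 counts over the DSS libraries and none without DSS, at least 630-fold higher (adjusted p = 0.000166). Trem1, which amplifies the response of neutrophils and monocytes, had 3110 against 1, a ratio of 2060 (95% counting interval 370 to 81400). Besides Ccl2, Mmp8, Mmp3, Mmp10 and Ccr7, the group included Ifitm6, the granule syntaxin Stx11, the lectin receptors Clec4a2, Clec12a and Olr1, the receptor Axl, which binds dying cells through a bridging ligand, and Npl, a lyase of sialic acid. Their bounds ran from at least 96.8-fold for Npl to at least 276-fold for Ifitm6. Npl was carried by 1 library, at 0.808, 12.2 and 1.56 CPM after DSS, and its call did not hold without either untreated library or without KO_NP_20.

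Among the 15 largest decreases were short RNAs and epithelial genes. A group of 4 short non-coding RNAs fell together. Rmrp, the RNA of RNase MRP, stood at 0.563, 0.612 and 0.243 CPM after DSS, against 16.7 and 12.6 CPM (-4.93, SE 0.45, adjusted p = 7.91e-05). The RNase P RNA Rpph1 (-4.78, SE 0.43, adjusted p = 7.66e-05) and the U1 splicing RNA Rnu1a1 (-4.38, SE 0.35, adjusted p = 4.03e-05) fell in parallel, and the vault RNA Vaultrc5 fell by 2.83 (SE 0.64, adjusted p = 0.0243), a call that did not hold without KO_NN_13, KO_NN_14 or KO_NP_21. These short transcripts moved with the share of counts under unnamed gene numbers, whose part in their decrease was not tested. Lars2, the mitochondrial leucyl-tRNA synthetase, stood at 216, 390 and 511 CPM after DSS, against 2376 and 4697 CPM (-3.25, SE 0.38, adjusted p = 0.000379). It too was higher in the group with the larger unnamed share. Wild-type libraries held 12440, 1079 and 1261 CPM of autosomal counts of it with DSS, at unnamed shares of 3.479, 1.748 and 2.387%. Without DSS they held 21030, 19710 and 10300 CPM, at 6.362, 7.315 and 3.702%. The part of that share in the decrease of Lars2 was not tested. Mal, a raft protein of apical transport in epithelium, fell to 14.84, 13.8 and 15 CPM after DSS, against 39.4 and 70.6 CPM (-1.92, SE 0.26, adjusted p = 0.00116). Other decreases were those of Apol9b, Rasd2, the nuclear receptor Esrrg, the ganglioside synthase St3gal5, Reg4, the growth factor receptor Fgfr2, Gsdmcl-ps and the kallikrein Klk1b22, at -3.39 to -1.92. Each of these 8 calls was lost without KO_NN_13, and all but that of St3gal5 also without KO_NN_14. Those of Apol9b, Rasd2, Reg4, Gsdmcl-ps and Klk1b22 were lost without KO_NP_20 too, and that of Gsdmcl-ps without KO_NP_21. Rasd2, at -2.53, turned to 4.59 with the sex term. In the fit of 11 libraries described below, the wild-type change was positive for Rasd2 (2.18), Esrrg (1.61) and St3gal5 (1.21). It was negative for Apol9b (-1.11), Reg4 (-0.11), Fgfr2 (-0.58), Gsdmcl-ps (-0.43) and Klk1b22 (-1.07), and none of these was called. Without DSS, St3gal5 stood at 16.68 and 13.86 CPM of autosomal counts in MCJ-deficient libraries, against 0, 0.3438 and 1.316 in wild-type ones.

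Whether DSS acted differently in MCJ-deficient and wild-type mice was tested in 1 fit of 11 libraries. The wild-type DSS libraries held 7, 0 and 1 counts of Xist and 2397, 2973 and 1689 Y-linked counts, against 2048, 1100 and 1 counts of Xist and 3, 70 and 2045 Y-linked counts in the untreated ones. Sex-linked transcripts were thus unevenly spread over the treatments in both genotypes, and their part in the differences was not tested. Of 14877 genes, 1 had a larger DSS effect in MCJ-deficient mice (0.00672%) and 0 a smaller one by edgeR at an adjusted p under 0.05. At an unadjusted p under 0.05 in edgeR there were 888 of the 14877 genes, where a share of 0.05 would pass without any difference. DESeq2 called 102 larger and 31 smaller effects. The 1 gene was Ccl9, with a log2 fold change of 4.70 (SE 0.41) in MCJ-deficient and 0.99 (SE 0.30, adjusted p = 0.105) in wild-type mice, a difference of 3.71 (SE 0.47, adjusted p = 0.0295). In CPM of autosomal counts Ccl9 stood at 101.4, 182.5 and 133.5 with DSS and 4.23 and 6.067 without it in MCJ-deficient mice, and at 43.21, 29.06 and 32.07 with DSS and 14.06, 13.96 and 17.96 without it in wild-type mice. The MCJ-deficient libraries were thus above the wild-type ones after DSS and below them without it. The difference was not called without any 1 of KO_NN_13, KO_NN_14, KO_NP_20, KO_NP_21, WT_NP_8 or WT_NP_9. The number of larger effects was 8 without WT_NN_1, 24 without WT_NN_2, 3 without WT_NN_3 and 9 without KO_NP_19, and the number of smaller ones was 1, 4, 7 and 0. Ptgs2 came close to the threshold, with 9.11 in MCJ-deficient and 3.46 in wild-type mice (difference 5.65, SE 0.82, adjusted p = 0.0614). In simulated counts this test of the difference found 1 of 100 true differences of 1 log2 unit, and 21 of 100 of 2 units. A difference without a call therefore does not show that DSS acted alike in both genotypes. The same simulation also called 6 genes, of 14604 tested, that held no true difference, so a call such as that of Ccl9 can be false. Its true differences were placed only in genes averaging above 2 CPM.

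In that fit, which estimates 1 spread from 11 libraries, 232 genes rose in MCJ-deficient mice (1.56%) and 322 in wild-type mice (2.16%). Of these, 151 rose in both, 65.1% of the first number and 46.9% of the second. Genes that fell were 7 (0.0471%) and 65 (0.437%), with 0 in both. Of 14 macrophage markers 8 rose in MCJ-deficient and 5 in wild-type mice, with median log2 fold changes of 5.15 and 3.89. Of 11 neutrophil markers 7 and 8 rose, with medians of 8.59 and 8.00. The 13 mitochondrial genes had medians of 1.03 in MCJ-deficient and -0.57 in wild-type mice, none of them called in either genotype, and no difference of theirs was called. Among all members of the 53 lists, the difference was called for Ccl9 alone. Igha had 5.92 (SE 2.28) in MCJ-deficient and -3.24 (SE 1.66) in wild-type mice, without a call of the difference (adjusted p = 0.605), and 1 untreated wild-type library held 174.0 CPM of autosomal counts of it against 3.083 and 0.06877 in the others.

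**Figure D5:**
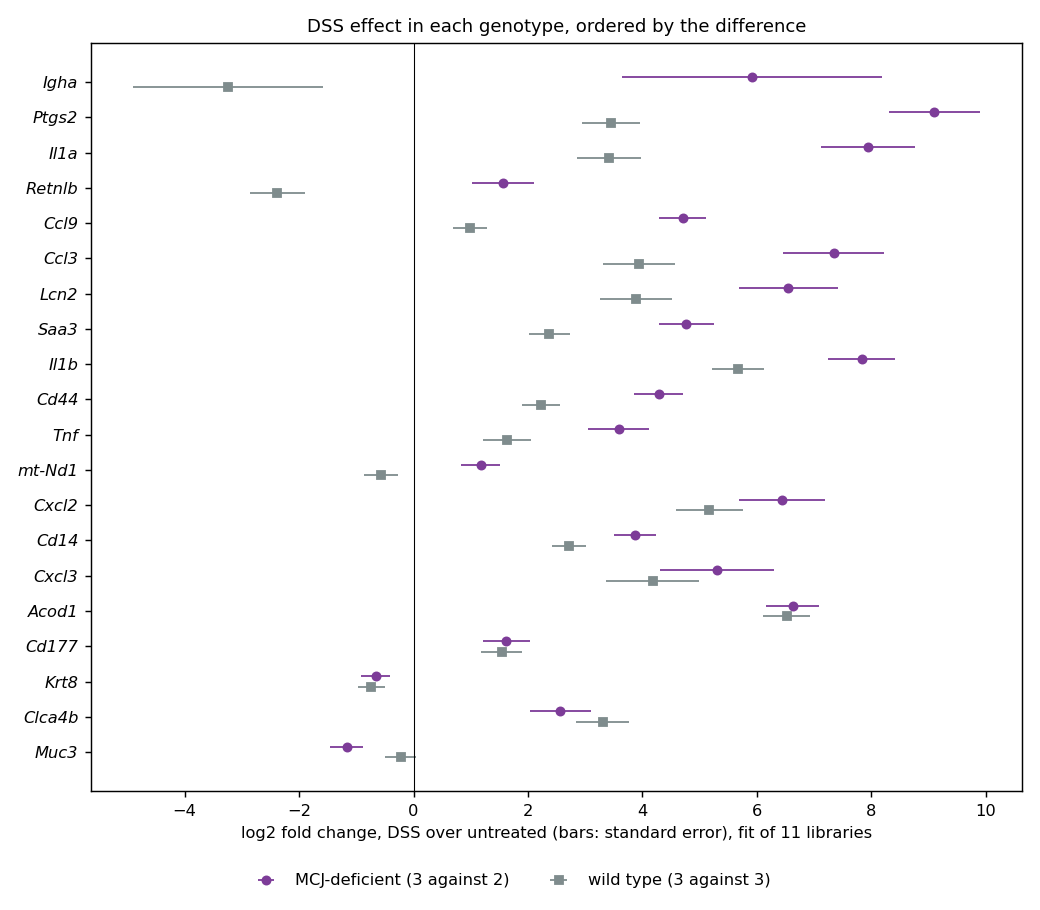
DSS effect of 20 genes as log2 fold change, DSS over untreated, from the fit of 11 libraries, with MCJ-deficient mice as purple circles above wild-type mice as grey squares, bars giving the standard error and genes ordered by the difference. The difference was called for Ccl9 alone (4.70 against 0.99), while Acod1, Cd177 and Krt8 had nearly the same effect in both genotypes.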

How the data were processed

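RNA of 5 libraries of MCJ-deficient mice was compared, with 6 wild-type libraries added for the difference between genotypes. The authors deposited raw counts per gene, 1 table per condition with 27179 NCBI gene numbers each, and the tables were joined by gene number. Per the submitters' processing notes, the pipeline used CASAVA 1.8.2, FastQC, Trim Galore, STAR 2.5.4, the build mm10 and DESeq2; the counter, annotation and strand setting are not given in the sources used here, so overlapping and antisense genes, and near-identical copies, cannot be separated. RefSeq and GENCODE gave names to all but 1886 gene numbers. Autosomal and mitochondrial genes were kept, low counts removed with filterByExpr and libraries scaled with TMM. edgeR 4.0.16 (R 4.3.3) quasi-likelihood tests were adjusted by Benjamini-Hochberg over all genes tested, and genes called at an adjusted p under 0.05; the script was tested on simulated data. An error after a fold change is the standard error (SE) of the fit. Where a group had 0 counts, 3 counts over that group stood in for 0 and the fold is a lower bound. Such a gene passed the low-count filter only through the other group, so its direction was fixed. Intervals cover counting error only.

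Named genes were Dnajc15, the 15 largest called increases and decreases whose symbol is informative, averaging 2 CPM or more, up to 4 called members of each list in each direction (or the 2 with the smallest p where fewer than 2 were called), the 3 most abundant markers of each cell type, and genes whose difference between genotypes was called. Exceptions, chosen after their values were seen, are Cd163, the promoter windows shown and Ptgs2 in the comparison of genotypes. Some genes that this rule gives are not reported here. The members and all 53 lists were chosen with earlier results of these data known. Nothing in the labels says that the libraries of a group came from separate cages or days, so p-values measure only the spread between them. Alternatives were RLE size factors, DESeq2 1.42.0, no filter, a filter of 1 CPM, nuclear genes alone, all gene numbers, fits of 11 and 17 libraries, a replicate block, and each library left out in turn; a fit with a term for sex-linked transcripts was added after the data were seen. Where a fit leaves 1 untreated library, that library is assumed to vary like the others.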

Additional observations from a re-analysis of the deposited data

Results flagged for a closer look

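The DSS effect on Ccl9, a chemokine of myeloid cells, differed between the genotypes by a test of the difference itself: the log2 fold change was larger in MCJ-deficient than in wild-type mice by 3.71 (SE 0.47, adjusted p = 0.0295, edgeR). Ccl9 was higher with DSS in 3 of 3 MCJ-deficient and 3 of 3 wild-type libraries than in any untreated library of the same genotype. The difference ranged from 3.44 to 4.00 when each library was left out, with adjusted p from 0.0116 to 0.547, and it was not called in the fit of 17 libraries (3.70, adjusted p = 0.256).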

How the results depend on the processing

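For MCJ-deficient mice, the counts of genes that rose and fell were within 1.5 times of 853 and 137 with RLE size factors, nuclear genes alone, all gene numbers and the 1 CPM filter. DESeq2 called 1418 higher and 343 lower. Without a filter on low counts 1204 rose and 371 fell. The fit of 17 libraries gave 332 and 3, and that of 11 libraries 232 and 7. Leaving out each library gave 416 to 1036 higher and 15 to 327 lower. The fit with a term for sex-linked transcripts, which left out KO_NP_21 and rests on WT_NN_3, gave 23 and 2. In it 6 of 158 named genes changed sign, among them Rasd2 (4.59), Jchain (-1.08), Igha (-0.19) and Eng (-4.98). Plac8, which was not called, was negative without KO_NN_13 (-0.30) and without KO_NP_20 (-0.21), and reached 0.48 without KO_NN_14. The cause of these changes was not tested.

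KO_NP_19 and KO_NN_13, and KO_NP_20 and KO_NN_14, share a mouse number in the labels. The deviations of these pairs from their group means correlated at -0.015 and -0.00097. With 2 untreated libraries the deviations of KO_NN_13 and KO_NN_14 mirror each other, so these values cannot decide whether more than a number is shared. With the number as a replicate block 1216 genes rose and 478 fell. In that fit KO_NP_21, the only library with number 3, does not enter the difference.

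For the difference between genotypes, more than 1 larger effect was called with RLE size factors (3), with DESeq2 (102 larger, 31 smaller) and without a filter (28 and 2), and 0 and 0 in the fit of 17 libraries. Leaving out each library gave 0 to 24 larger and 0 to 7 smaller effects. The log2 ratio of the colonocyte sum was -0.25 over autosomal counts and -0.55 over all counts, since the mitochondrial share is then part of the total. It ranged from -0.42 to -0.08 with each library left out, and the macrophage ratio from 4.06 to 4.96. The difference in mitochondrial share ranged from 13.11 to 20.69 percentage points. Changes of low genes are the most limited by depth, since the untreated libraries often hold 3 or fewer counts of them.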
